A study of Macaca mulatta with 24 samples.

Results

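The EGF receptor family of growth signals was followed in the colon of rhesus macaques after total-body irradiation (TBI), a single exposure of the whole animal to gamma rays. The set was made of the ligands AREG, EREG, HBEGF, TGFA, BTC, EGF and NRG1 and the receptors EGFR, ERBB2 and ERBB3, and every array probe that carried 1 of these 10 gene symbols was taken. This gave 20 of the 43603 transcript probes, for 8 of the 10 genes, out of 16102 different gene names (LOC numbers counted) on the array. No probe carried the symbol AREG or ERBB3. A single probe is listed as AREGB and described as amphiregulin, the product that AREG is named for, and its values are given beside the members but are not counted with them.

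Each of the 24 arrays held whole colon tissue of 1 male young adult animal. The groups were 4 unirradiated controls, 4 animals each at 4 and 7 days after 6.7 Gy and after 7.4 Gy, and 2 animals each at 12 days after either dose. No agent other than radiation set the groups apart, and the same 4 controls, labelled day 4, served every comparison, so the comparisons against control share them and no controls were matched to days 7 and 12. Values are the log2 signal of a probe minus the 75th percentile of its array. A value of 0 is thus the 75th percentile itself and each unit is a doubling. Levels are compared for the same probe between arrays and never between probes. Where arrays are said to lie above or below all controls, this only describes those arrays. The share of all probes that separate in this way is not given. Of the 20 probes, 19 gave a signal well above background in 2 or more arrays and were tested. The single EGF probe reached that level on 0 of 24 arrays and was not tested. The share of transcript probes well above background was 66.7% to 85.0%, and arrays of the same group correlated at r = 0.963 to 0.985. The tissue label was checked against epithelial markers. All 8 measured genes of the colon epithelium list, among them EPCAM, KRT19 and LGALS4, were well above background on 4 of 4 control arrays.

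These ligands are made as precursors anchored in the cell membrane, and metalloproteases of the ADAM family cut them free. EREG, HBEGF, TGFA, BTC, EGF and amphiregulin bind EGFR, whereas NRG1 binds ERBB3 and ERBB4. ERBB2 has no known ligand of its own and serves as the partner receptor of the others. The bound receptors signal through RAS and the MAP kinases and through PI3 kinase. In the gut the pathway is known for driving crypt cell division and for repair of the epithelium after injury.

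On day 4 the ligands EREG and NRG1 were higher and the receptor ERBB2 was lower than in control at both doses, while EGFR, TGFA, BTC and HBEGF did not pass the test. A probe was called changed if its adjusted p was below 0.05 and its difference 2-fold or more (limma, Benjamini-Hochberg over all 38200 probes fitted). After 6.7 Gy 6 of the 19 member probes were called, 4 higher and 2 lower, where 3.64% of all probes were called, 1.81% higher and 1.83% lower. After 7.4 Gy 7 were called, 5 higher and 2 lower, where 7.04% of all probes were called, 3.4% higher and 3.65% lower. By the brightest probe of each gene, 3 of the 7 tested genes were called at each dose, against 4.31% and 8.24% of the 13450 named genes. The members and gene lists were chosen with earlier results of these data known. Shares set beside those of all probes or genes, here and below, are therefore no test of the set. The methods' t-test called 1 member probe after 6.7 Gy, the brightest of NRG1, and 6 after 7.4 Gy. The median log2 change over the 19 member probes was 0.14 after 6.7 Gy and -0.11 after 7.4 Gy, and over all probes it was -0.07 at both doses.

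**Figure D1:**
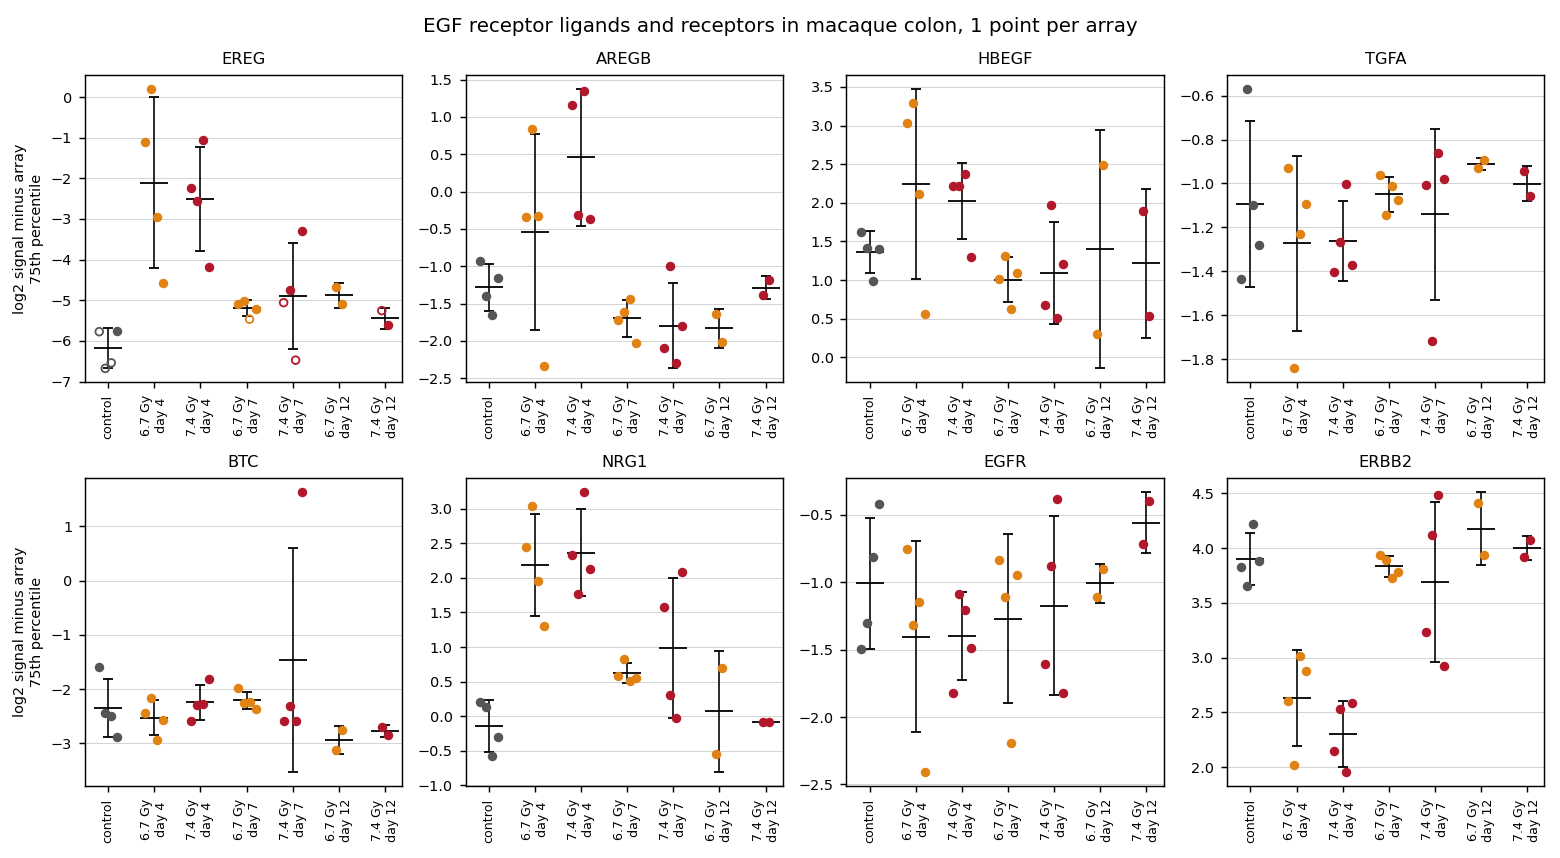
Log2 signal minus the 75th percentile of the array (vertical axis) for the brightest probe of each gene in the control and the 6 dose-by-day groups (horizontal axis), 1 point per array, with open points for arrays on which the probe was not well above background. Bars give the group mean and SD; EREG and NRG1 stand above and ERBB2 below all 4 controls on all 8 day 4 arrays, and a single BTC value of 1.63 stands apart on day 7 after 7.4 Gy.

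EREG encodes epiregulin, a ligand of EGFR and ERBB4, and had the highest day 4 change of the members in the reported fit. That order did not hold with normexp background correction, where EREG changed by 1.81 and 1.36, below the 1.94 and 2.22 that the brightest NRG1 probe reached at the least in any alternative. In the controls its probe (A_01_P1755001) read -5.77, -6.68, -6.54 and -5.75, and it was well above background on only 1 of these 4 arrays. On day 4 it read -1.11, 0.21, -2.94 and -4.59 after 6.7 Gy. After 7.4 Gy it read -2.23, -2.56, -1.06 and -4.19, and it was well above background on all 8 arrays of day 4. The lowest day 4 array lay above the highest control array, so the groups did not overlap, but the day 4 arrays themselves were spread widely (SD 2.10 and 1.29, n = 4 each).

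The log2 change of EREG on day 4 was 4.08 ± 0.79 (SE, adjusted p = 0.00426) after 6.7 Gy, a 16.9-fold higher signal, and 3.68 ± 0.79 (adjusted p = 0.00334) after 7.4 Gy, a 12.8-fold higher signal. Because 3 of the 4 controls were not well above background, these folds rest on a control level near the limit of detection. The value at 6.7 Gy turned on single arrays, being 3.31 without replicate 2 and 4.91 without replicate 4, and the call was kept without either. Over all alternatives it ranged from 1.81 (normexp background correction) to 5.79 (array position and scan day as blocks), and at 7.4 Gy from 1.36 to 7.15 under the same 2 settings. It was lost when the compared groups were fitted alone (adjusted p = 0.0510) and by the methods' t-test (adjusted p = 0.106). At 7.4 Gy it was lost with normexp (adjusted p = 0.0757). In the 6.7 Gy day 4 group the higher replicates 1 and 2 sat on slides 5 and 6, at position 1, with scan day 2. The lower replicates 3 and 4 sat on slides 1 and 2, at position 2, with scan day 1. Differences between these animals and between their slides, positions and scan days cannot be told apart.

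EREG came back down after day 4. On day 7 its 4 arrays after 6.7 Gy lay between -5.47 and -5.01, and those after 7.4 Gy read -5.06, -4.75, -6.47 and -3.30. On day 12 the 4 arrays of both doses lay between -5.62 and -4.67. All arrays of day 7 after 6.7 Gy and of day 12 lay above the highest control, -5.75, a description with no share over all probes beside it. That control level was itself near the limit of detection. The changes against control of 0.99 and 1.29 on day 7 and of 1.30 and 0.75 on day 12 did not pass the test, with 95% intervals that ran from -1.28 to 3.33 between them, which still hold a change of several-fold. From day 4 to day 7 EREG fell by 2.74 on the log2 scale (adjusted p = 0.00159), and from day 4 to day 12 it fell by 2.85 (adjusted p = 0.00558).

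Amphiregulin is a ligand of EGFR that is known from wound repair. The AREGB probe (A_01_P015638) read between -1.65 and -0.93 in the controls and was well above background on all 24 arrays. On day 4 it read -0.34, 0.84, -0.32 and -2.33 after 6.7 Gy, which overlaps the controls. After 7.4 Gy it read 1.16, -0.31, 1.35 and -0.37, above every control. The change of 0.74 ± 0.49 after 6.7 Gy did not pass the test (adjusted p = 0.361), and without replicate 4 it was 1.34 (adjusted p = 0.0445). The change of 1.74 ± 0.49 after 7.4 Gy did (adjusted p = 0.0180), but not without replicate 1 (1.51, adjusted p = 0.0656) or replicate 3 (1.44, adjusted p = 0.0652) of that group, nor with slide as a block (1.36, adjusted p = 0.0921) or scan day as a block (1.52, adjusted p = 0.0533) or by the methods' t-test (adjusted p = 0.0716). The 95% interval of the difference of 7.4 minus 6.7 Gy on day 4 ran from -0.03 to 2.03. AREGB fell from day 4 to day 7 by 1.70 (adjusted p = 0.00162) and from day 4 to day 12 by 1.52 (adjusted p = 0.0148). The day 12 call was lost without replicate 2 of the 6.7 Gy day 12 group (-1.42, adjusted p = 0.0597), without replicate 1 of the 7.4 Gy day 12 group (-1.46, adjusted p = 0.0540), with the compared groups alone (adjusted p = 0.0719) and by the methods' t-test (adjusted p = 0.107).

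HBEGF, a heparin-binding EGFR ligand, was measured with 2 probes that were well above background on every array. Its brighter probe (A_01_P018160) read between 0.99 and 1.63 in the controls, and 3.03, 3.28, 2.12 and 0.56 on day 4 after 6.7 Gy. After 7.4 Gy it read 2.22, 2.22, 2.38 and 1.30. In each dose group 3 of 4 arrays lay above all controls and replicate 4 lay among or below them, and the changes of 0.89 ± 0.52 (adjusted p = 0.295) and 0.67 ± 0.52 (adjusted p = 0.391) did not pass the test. From day 4 to day 7 this probe fell by 1.09 (adjusted p = 0.0350), a call that was lost in 9 of the 16 fits that left out 1 array (adjusted p of 0.0547 to 0.0802 in these), with slide as a block (-0.92, adjusted p = 0.0943) and with scan day as a block (-0.98, adjusted p = 0.0667). The other probe (A_01_P1753221) had changes of 0.32 and 0.14 on day 4 and was not called in any comparison.

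TGFA and BTC, both ligands of EGFR, showed no called difference from control. The brightest of the 5 TGFA probes (A_01_P1697951) had control values from -1.44 to -0.57 and changes of -0.18 ± 0.21 and -0.17 ± 0.21 (SE) on day 4, with 95% intervals that reached from -0.61 to 0.27. A decrease or rise of 2-fold therefore lay outside both intervals. The other 4 TGFA probes had changes between -0.42 and 0.17, and 2 of them were well above background on only 3 and 4 of the 24 arrays. BTC (A_01_P1754996) read -2.35 ± 0.54 in the controls, and its day 4 changes of -0.18 ± 0.61 and 0.10 ± 0.61 had 95% intervals that ran from -1.46 to 1.39 between them. On day 7 after 7.4 Gy 3 BTC values lay between -2.59 and -2.32 and the fourth, replicate 4, was 1.63. EGF itself lay between -8.64 and -6.37 on all arrays and was not well above background on any.

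NRG1, which encodes neuregulin 1, is the member whose ligand acts on ERBB3 and ERBB4. All 5 of its probes read higher on day 4 than in control at both doses, and 3 were called after 6.7 Gy and 4 after 7.4 Gy. The brightest probe (A_01_P1737856) read 0.20, 0.13, -0.58 and -0.31 in the controls. It read 2.45, 3.04, 1.96 and 1.30 on day 4 after 6.7 Gy, and 2.33, 1.77, 3.24 and 2.12 after 7.4 Gy. The lowest of these 8 arrays was above the highest control. The log2 changes were 2.33 ± 0.43 (adjusted p = 0.00339), or 5.02-fold, and 2.51 ± 0.43 (adjusted p = 0.000651), or 5.69-fold. This probe kept its call at both doses in all 24 alternative fits, between 1.94 and 3.08 after 6.7 Gy and between 2.22 and 4.22 after 7.4 Gy.

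The probes of NRG1 differed in the size of the change. Probe A_01_P005790 rose by 1.75 and 1.78 (adjusted p = 0.00675 and 0.00239), and probe A_01_P1737851 by 1.15 and 1.58 (adjusted p = 0.0171 and 0.000963). Without control replicate 3 the latter's change after 6.7 Gy was 1.03 (adjusted p = 0.0531), and without replicate 2 of its group it was 0.91 (adjusted p = 0.0574). With slide as a block it was 0.99 (adjusted p = 0.0818). With normexp background correction this probe was called at neither dose, at 0.47 (adjusted p = 0.204) and 0.74 (adjusted p = 0.0275, under 2-fold). Probe A_01_P1737861 had a change of 1.14 after 6.7 Gy that missed the threshold (adjusted p = 0.0982) and rose by 1.47 after 7.4 Gy (adjusted p = 0.0221), a call that was lost without control replicate 1 (1.12, adjusted p = 0.0810), replicate 1 of the group (1.45, adjusted p = 0.0518) or replicate 3 of the group (1.13, adjusted p = 0.0832), with scan day as a block (1.35, adjusted p = 0.0565) and in 5 further alternatives (0.57 to 2.08, adjusted p of 0.0806 to 0.3397). Probe A_01_P003368 passed the adjusted p at 0.85 and 0.84 (adjusted p = 0.0389 and 0.0242) but stayed under the 2-fold threshold. It was called at both doses with array position as a block (1.28 and 1.71) and with spike-in scaling (1.06 and 1.11), and after 6.7 Gy also without replicate 3 of that group (1.02) and with blocks for both position and scan day (1.35). Which transcript forms these probes read is not known from the sources used here, and a gene-level change in NRG1 therefore ranged from under 2-fold to over 5-fold with the probe.

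**Figure D2:**
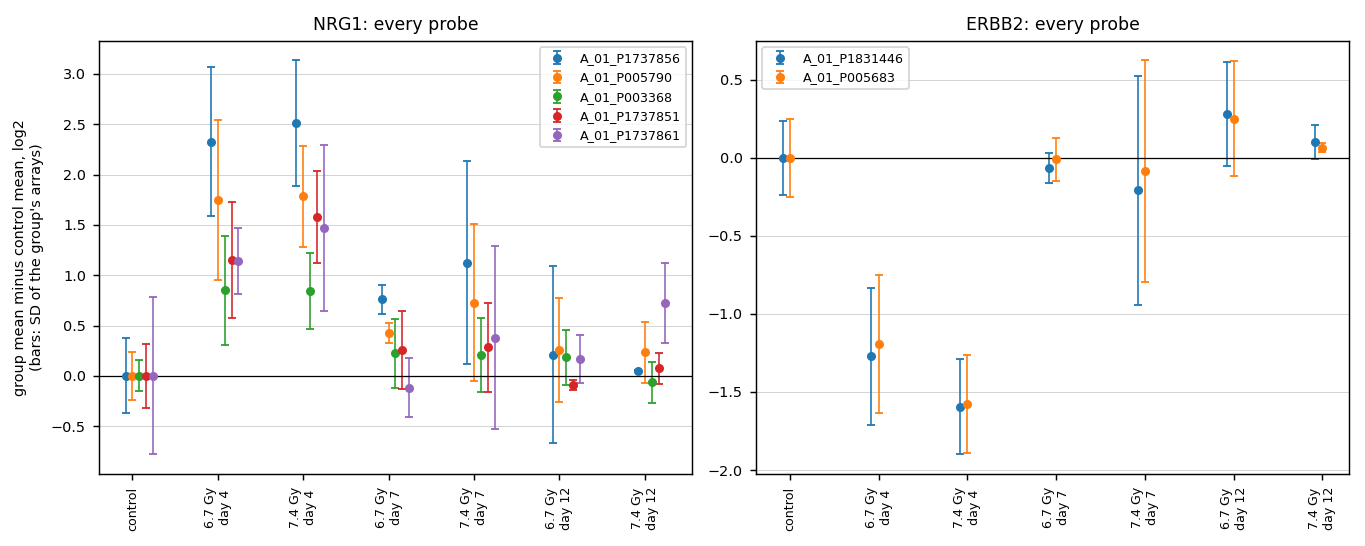
Group mean minus control mean (vertical axis, log2) for the 5 probes of NRG1 (left) and the 2 probes of ERBB2 (right) in each group (horizontal axis), with bars for the SD of the group's arrays. On day 4 every NRG1 probe lies above the control level, by 0.84 to 2.51, and both ERBB2 probes lie below it, by 1.19 to 1.60, and the day 7 and day 12 means lie nearer to the control level.

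On day 7 the brightest NRG1 probe read between 0.50 and 0.83 after 6.7 Gy, where the highest control read 0.20. After 7.4 Gy the animals were split, with values of 1.58 and 2.09 in replicates 1 and 4 and of 0.30 and -0.03 in replicates 2 and 3. The changes against control were 0.76 ± 0.43 (adjusted p = 0.612) and 1.12 ± 0.43 (adjusted p = 0.309) and were not called. On day 12 they were 0.21 and 0.05, with 95% intervals from -1.06 to 1.32 between them. The fall of this probe from day 4 was 1.48 by day 7 (adjusted p = 0.00180) and 2.29 by day 12 (adjusted p = 0.000332).

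ERBB2, the partner receptor of the family, had 2 probes that changed alike. In the controls the brighter probe (A_01_P1831446) read 3.83, 3.66, 4.22 and 3.89. On day 4 it read 2.61, 2.02, 3.01 and 2.88 after 6.7 Gy, and 2.15, 2.53, 1.96 and 2.59 after 7.4 Gy. All 8 arrays lay below the lowest control. The log2 changes were -1.27 ± 0.28 (adjusted p = 0.00839), 2.41-fold lower, and -1.60 ± 0.28 (adjusted p = 0.000676), 3.02-fold lower. The other probe (A_01_P005683) fell by 1.19 (adjusted p = 0.0116) and by 1.58 (adjusted p = 0.000729). Without replicate 2 of the 6.7 Gy group the latter's change there was -0.98 (adjusted p = 0.0403), just under 2-fold, and with slide as a block it was -1.09 (adjusted p = 0.0621).

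On day 7 ERBB2 was back near the control level, with values between 3.73 and 3.94 after 6.7 Gy. After 7.4 Gy the animals were again split, at 3.24 and 2.92 in replicates 1 and 4 and at 4.12 and 4.48 in replicates 2 and 3. These are the animals in which NRG1 was higher and lower, respectively, on that day. On day 12 the values lay between 3.92 and 4.41. The changes against control on days 7 and 12 lay between -0.21 and 0.28 and none was called. The rise from day 4 was 1.30 by day 7 (adjusted p = 0.000152) and 1.62 by day 12 (adjusted p = 0.000140), and the other probe rose by 1.34 and 1.54.

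EGFR, the receptor of the ligands listed first, had 3 probes and no call. Its brightest probe (A_01_P1697456) read -1.50, -1.30, -0.81 and -0.42 in the controls. On day 4 it read -0.75, -1.32, -1.15 and -2.41 after 6.7 Gy, and -1.82, -1.08, -1.20 and -1.49 after 7.4 Gy. The groups overlapped, and the changes were -0.40 ± 0.37 (adjusted p = 0.534) and -0.39 ± 0.37 (adjusted p = 0.492), with 95% intervals from -1.17 to 0.38 that still hold a 2-fold decrease. Probe A_01_P1690346 gave -0.44 and -0.52. The dimmest probe (A_01_P009279), well above background on 12 of 24 arrays, gave -0.83 and -1.25 (adjusted p = 0.309 and 0.0843). After 7.4 Gy it was called without replicate 2 (-1.64, adjusted p = 0.0292), with slide as a block (-1.69, adjusted p = 0.0281), with slide as a random block (-1.37, adjusted p = 0.0455) and with scan day as a block (-1.58, adjusted p = 0.0387).

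**Figure D3:**
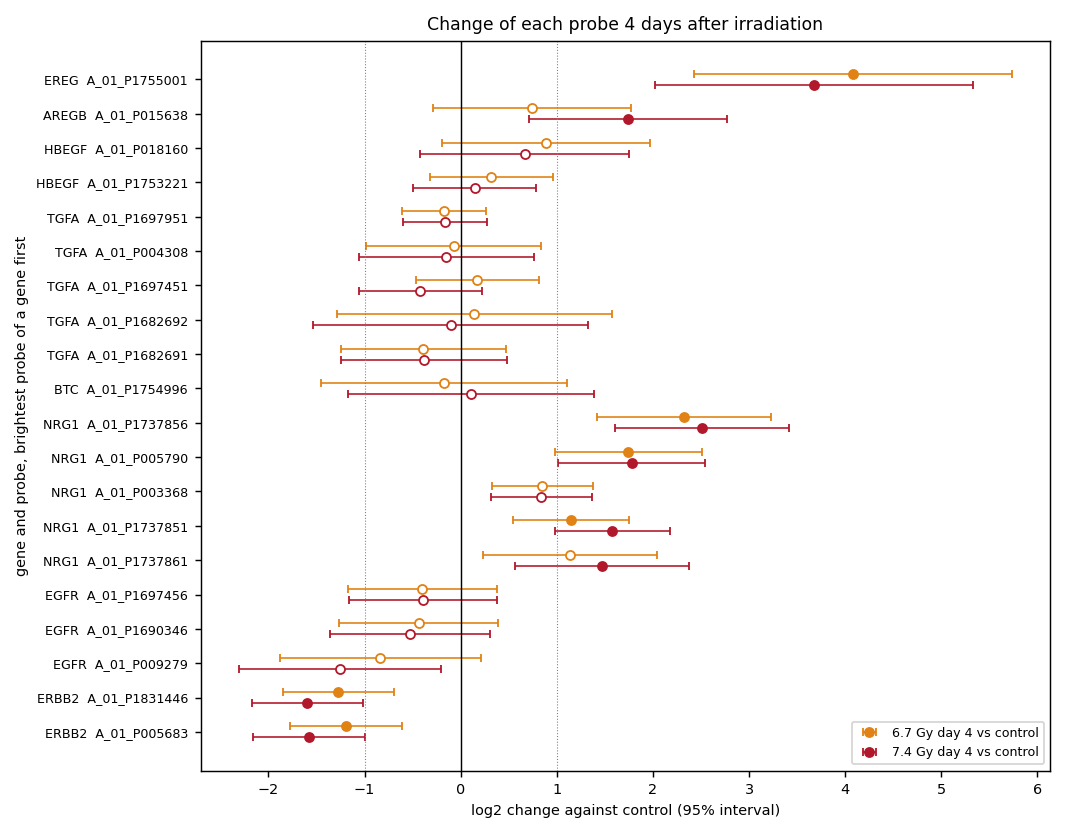
Log2 change against control on day 4 (horizontal axis) for each of the 19 tested member probes and the AREGB probe (vertical axis), with 95% intervals; orange is 6.7 Gy, red is 7.4 Gy, filled points were called, and dotted lines mark 2-fold. EREG, NRG1 and, after 7.4 Gy, AREGB lie to the right, ERBB2 lies to the left, and the intervals of HBEGF, TGFA and BTC cross 0.

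Over the whole time course the called changes against control were those of day 4. A probe that was not called on day 7 or day 12 may still have differed from control. On day 7 0 of 19 member probes were called at either dose, where 0.317% (6.7 Gy) and 0.387% (7.4 Gy) of all probes were called. At an unadjusted p under 0.05 there were 0 and 1 member probes, and the methods' t-test called 0 at both doses. On day 12 0 of 19 were called at either dose, where 0.0183% and 0.0262% of all probes were called, with 0 and 0 member probes at an unadjusted p under 0.05 and 0 by the methods' t-test. With 2 animals a group on day 12, these comparisons had the fewest arrays. From day 4 to day 7, with both doses averaged, 8 of 19 member probes were called, 2 higher (both of ERBB2) and 6 lower, where 4.44% of all probes were called, 2.38% higher and 2.06% lower. From day 4 to day 12 there were 6, 2 higher (ERBB2) and 4 lower (EREG and 3 probes of NRG1), where 6.49% were called, 3.58% higher and 2.91% lower. By brightest probe 4 of 7 genes were called by day 7 and 3 of 7 by day 12, against 5.05% and 7.62% of named genes. All day 4 arrays sat at array positions 1 and 2, and those of days 7 and 12 at positions 3 and 4. Day and position therefore cannot be told apart in these comparisons with day 4. From day 7 to day 12 0 of 19 were called, where 0.107% of all probes were, with 1 at an unadjusted p under 0.05 and 0 by the methods' t-test. That probe was the brightest of NRG1, at -0.81 (95% interval -1.60 to -0.03).

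The doses were set against each other on days 4, 7 and 12. No member probe was called on any day (0 of 19 each), and limma called 0% of all probes in each of these 3 comparisons. At an unadjusted p under 0.05 there were 0, 1 and 0 member probes, and the methods' t-test called 0 on each day. On day 4 the difference of 7.4 minus 6.7 Gy was -0.40 for EREG (95% interval -2.06 to 1.25), 0.18 for NRG1 (-0.73 to 1.09) and -0.32 for ERBB2 (-0.90 to 0.26). A 2-fold difference between doses thus lay within the intervals of EREG and NRG1 and outside that of ERBB2. In the order of group means, EREG, NRG1 and ERBB2 had the day 4 groups at 1 end and the control or day 12 groups at the other, and the neighbouring doses of a day did not differ beyond their spread.

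The genes that the pathway also runs through were counted by brightest probe, against 4.31% (6.7 Gy) and 8.24% (7.4 Gy) of all named genes called on day 4. Of the other ligands and the receptor ERBB4, only NRG4 was measured above the filter. NRG4, a further ligand of ERBB4, fell by 1.47 (adjusted p = 0.0153) and by 1.37 (adjusted p = 0.0114) on day 4, opposite in direction to NRG1. Of 5 measured genes of ligand shedding, 0 were called after 6.7 Gy and 1 after 7.4 Gy. This was the metalloprotease ADAM9, 2.14-fold higher (adjusted p = 0.00282). Of 16 genes that relay the signal (adaptors, RAS, RAF, MAP kinases and PI3 kinase), 0 were called at either dose, with medians of -0.15 and -0.02. Of 15 negative regulators 0 and 1 were called (0% and 6.67%, below the shares of all named genes), the latter being SPRED1, an inhibitor of RAS signalling, at 1.37 (adjusted p = 0.00153), and their medians were 0.53 and 0.39. All named genes had medians of -0.04 and -0.02. Other negative regulators were higher with an adjusted p below 0.05 but under 2-fold. After 6.7 Gy these were ERRFI1 (0.83), SPRED1 (0.95) and DUSP6 (0.85), with adjusted p of 0.0403, 0.0290 and 0.0247. After 7.4 Gy they were ERRFI1 (0.88), LRIG3 (0.84), DUSP4 (0.97), DUSP5 (0.70) and DUSP6 (0.75), with adjusted p of 0.0170 to 0.0497. Those of the list that lay below control, such as SPRED2 (-0.03 and -0.26), did not pass. The share of all named genes that passed by adjusted p alone is not given here. The genes under 2-fold are therefore named singly and not read as a change of the list.

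Transcripts that MAP kinase signalling is known to induce gave 5 calls of 14 after 6.7 Gy and 6 of 14 after 7.4 Gy, all higher, with medians of 0.77 and 0.66. Of all named genes 2.33% and 4.26% were called higher. ETV4, a transcription factor of the ETS family, rose by 2.68 (adjusted p = 0.00411) and 2.82 (adjusted p = 0.000989). The early response factors EGR1 (2.38 and 2.11, adjusted p = 0.0292 and 0.0310) and EGR2 (2.21 and 2.25, adjusted p = 0.0255 and 0.0131) rose as well. So did IER3, an early response gene of cell survival (2.07 and 1.97), and EPHA2, an ephrin receptor (1.42 and 1.55). The cell cycle gene CCND1 was 0.67 after 6.7 Gy (adjusted p = 0.0504, with 1 of the group's arrays left out as an outlier spot) and rose by 1.21 after 7.4 Gy (adjusted p = 0.000444). Members of the list also lay below control without being called, FOSL2 at -0.43 and -0.79 (adjusted p = 0.0839 and 0.00193, under 2-fold) and LIF at -0.82 and -0.88 (adjusted p = 0.209 and 0.131). On days 7 and 12 none of the genes of these lists was called against control at either dose, but an uncalled gene may still have differed. On day 7 ETV4 was at 2.08 and 1.52 (adjusted p = 0.0877 and 0.234) and SPRED1 at 1.05 and 1.18 (adjusted p = 0.0959 and 0.0503). DUSP5 lay below control, at -0.69 and -0.96 (adjusted p = 0.302 and 0.0913). The MAPK-induced transcripts also respond to signals other than EGF receptors. Their list was chosen with earlier results of these data known, and no set test was run.

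**Figure D4:**
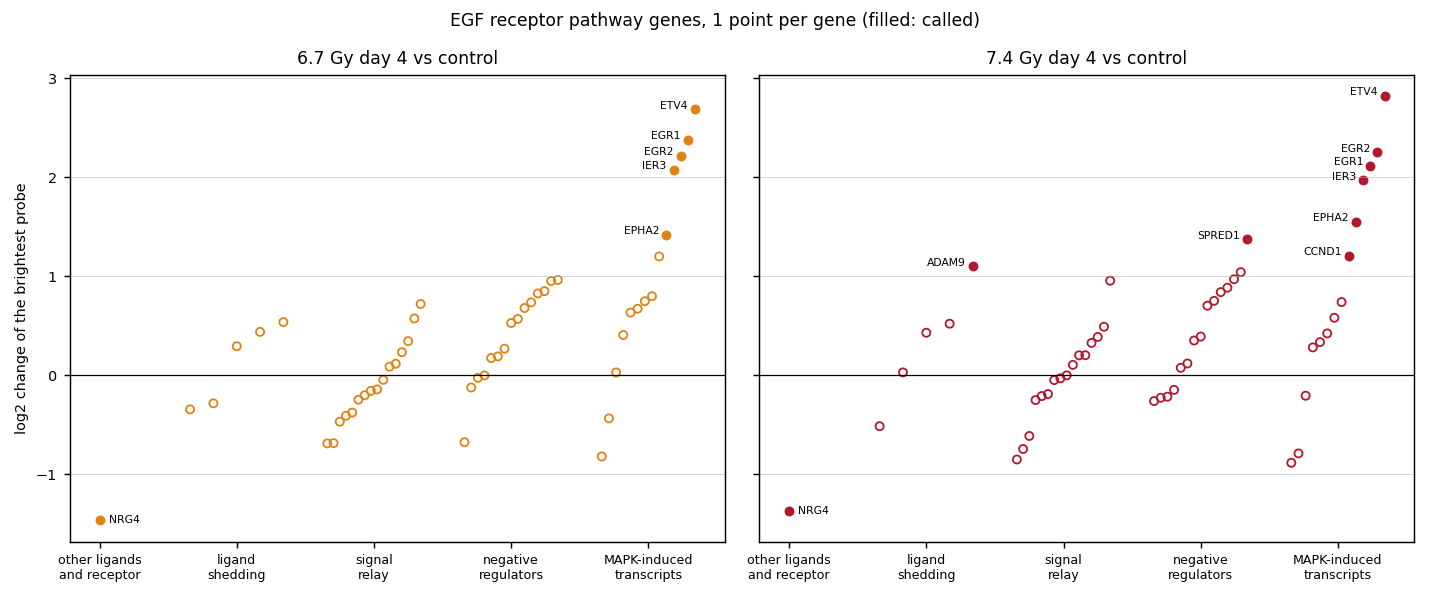
Log2 change against control on day 4 (vertical axis) of each measured gene, by its brightest probe, in 5 lists of the EGF receptor pathway (horizontal axis), after 6.7 Gy (left) and 7.4 Gy (right); filled points were called and are named. The MAPK-induced transcripts hold 5 and 6 calls of 14, and the 16 relay genes hold none.

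Markers of cell types moved in the same groups. Of 10 mature surface colonocyte genes, 6 were lower after 6.7 Gy and 8 after 7.4 Gy on day 4 (medians -2.25 and -3.89), where 1.98% and 3.98% of all named genes were called lower. Their mean log2 level lay between 4.42 and 4.82 in the controls, between 1.16 and 2.97 and between -0.14 and 2.87 in the day 4 groups, and between 2.36 and 4.48 on day 7 after 7.4 Gy. All 10 were well above background on 4 of 4 control arrays. Not all of them fell, with CA4 at 0.89 (adjusted p = 0.115) and -0.06 and MS4A12 at -0.23 and -0.25 on day 4. Of 8 colon epithelium genes 3 were lower at each dose (VIL1, CDX2 and LGALS4, by 1.63, 1.28 and 1.51 after 7.4 Gy), and their mean level lay between 4.80 and 4.96 in the controls and between 3.76 and 4.52 on day 4. KRT18 of the same list was 0.03 and 0.10 on day 4. ERBB2 fell in these same day 4 arrays. Its fall may be read as fewer cells that carry it or as less of it in each cell, which cannot be told apart in whole tissue. How far it goes with the fall of colonocyte markers was not tested.

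Of 8 fibroblast genes 0 and 4 were higher on day 4 (COL1A2, COL3A1, COL6A3 and PDGFRB, by 1.01 to 1.79 after 7.4 Gy), where 2.33% and 4.26% of all named genes were called higher. The list had medians of 0.61 and 0.98, with mean levels of 1.24 to 1.91 in the controls, 1.37 to 2.39 after 6.7 Gy and 2.35 to 2.82 after 7.4 Gy. Of 6 genes of neutrophils and monocytes 0 and 3 were higher (S100A8, S100A9 and LYZ, by 1.11 to 3.62 after 7.4 Gy). The list had medians of 0.73 and 1.001, with mean levels of -1.90 to -1.44 in the controls, -1.67 to -0.04 after 6.7 Gy and -1.25 to 0.65 after 7.4 Gy. In the same list CSF3R was -0.34 and -0.42 (adjusted p = 0.135 and 0.0424, under 2-fold) and FCN1 was -0.46 and 0.07. Crypt stem and cycling cell genes gave 0 and 1 of 6 (ASCL2, 1.05), and smooth muscle, macrophage and enteric neuron and glia lists gave 0 calls at either dose. A single call in such a short list is not read as a change of the list. After 6.7 Gy, where neither the fibroblast nor the neutrophil and monocyte list had a call, COL1A2 was 1.06 (adjusted p = 0.0896), S100A8 2.81 (adjusted p = 0.121) and S100A9 1.39 (adjusted p = 0.175). The part of these cells in the rise of NRG1 and EREG was not tested.

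Slides and array positions were not spread evenly over the groups. All 4 controls sat at array position 1, on slides 1 to 4, and all 4 arrays of day 4 after 7.4 Gy sat at position 2. The 6.7 Gy day 4 arrays sat at positions 1 and 2, and all arrays of days 7 and 12 at positions 3 and 4. Changes of days 7 and 12 against control or day 4 therefore cannot be told apart from array position. The controls and the arrays of day 4 after 7.4 Gy share no position either. Only the 6.7 Gy day 4 group links positions 1 and 2, and its arrays at these positions also differ in slide and scan day. Set directly against control, the 7.4 Gy day 4 changes thus cannot be told apart from position. Arrays of day 4 after 7.4 Gy and of day 12 were all scanned on scan day 2. The other groups were split over scan days 1 and 2. Within the 2 slides that held a control and a 6.7 Gy day 4 array, the difference was 2.83 and 2.09 for EREG, 1.76 and 1.17 for the brightest NRG1 probe and -0.82 and -0.78 for the brighter ERBB2 probe. Within the 2 slides that held a control and a 7.4 Gy day 4 array, it was 4.31 and 3.19, 2.91 and 2.08, and -2.08 and -1.36. Each of these compares 1 array with 1 array. No day 4 array overlapped the controls for these 3 probes, so the direction of every such pair was already set and is no further support. The 2 arrays of day 4 after 6.7 Gy at position 1 differed from the controls there by 5.74 (EREG), 2.89 (NRG1) and -1.59 (ERBB2). With array position and scan day both as blocks, both ERBB2 probes after 7.4 Gy (-2.34 and -2.31, adjusted p = 0.0726 and 0.0754) and the NRG1 probes A_01_P005790 (2.84, adjusted p = 0.0717) and A_01_P1737861 (2.08, adjusted p = 0.3397) were no longer called.

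Across the 24 arrays the genes most like EREG were NR4A2, an early-induced nuclear receptor (Pearson r = 0.950), ADAMTS1, a secreted protease (0.943), and IER3 (0.938). Those most like the brightest NRG1 probe were RRP15 (0.942), CCNH (0.931) and SLCO4A1 (0.929). Those most like ERBB2 were MARCHF8 (0.971), GUCY2C, the guanylin receptor of the intestinal epithelium (0.969), and RAPGEFL1 (0.965). Among the members themselves, r was 0.888 for NRG1 with EREG, -0.946 for NRG1 with ERBB2 and -0.862 for EREG with ERBB2. The arrays of a group share their dose and day, so these values describe mainly the step between day 4 and the other groups and are given with no test.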

How the data were processed

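Each colon sample was hybridised to a 1-colour (Cy3) Agilent rhesus array. The authors deposited Feature Extraction 11.0.1.1 scanner files, whose processed signal is a background-subtracted intensity, on a probe layout built on rheMac2. They also deposited a normalized log2 table, centred per probe, which served as an alternative and to name probes. Gene symbols came from the deposited tables for 18640 probes and from a RefSeq table for 3268 more, and can be old.

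Spots marked as outliers were set to missing, spots of a probe were averaged, and the log2 intensity was scaled to the 75th percentile of each array, as in the study's methods. Probes well above background on at least 2 of 24 arrays entered, 38200 were fitted, and 1 mean per group was estimated over all arrays with limma 3.58.1 under R 4.3.3. Tests were two-sided, with Benjamini-Hochberg adjustment inside each contrast. Calls needed an adjusted p under 0.05 and at least 2-fold. The study's methods used a t-test, which was run as an alternative. The number of arrays limits the precision. Each limma p-value sets a difference between group means against the spread between animals within groups. That spread is estimated over all groups together, so it can differ from the spread of a single group. A treatment label gives another last day than the sample labels (day 12), which were followed.

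The members and gene lists were chosen with earlier results of these data known. Named were all member probes, of the pathway lists the 4 highest and 4 lowest called genes per group, for each member called against control the 3 genes most like it over 24 arrays, and cell type genes that check the tissue or move with a member. The fit was tested on simulated data. Alternatives were background correction (normexp, offset 50), scaling, filters, blocks, tests, thresholds and leaving out each array.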

Additional observations from a re-analysis of the deposited data

Results flagged for a closer look

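In 105 groups of 4 arrays (20 member probes and AREGB in 5 groups), 5 had an array that stood apart from the other 3 (its gap to the nearest, as a share of the group's whole range, was above the 95% limit of Dixon's test), where chance gives 1 in 20 or about 5.2. BTC on day 7 after 7.4 Gy had 1 high array (replicate 4, 1.63 against -2.59 to -2.32, gap share 0.937). Both HBEGF probes on day 4 after 7.4 Gy had the same low array (replicate 4), with 1.30 against 2.22 to 2.38 (gap share 0.852) for the brighter probe and 0.49 against 1.25 to 1.38 (gap share 0.853) for the other. A dim TGFA probe (A_01_P1697451) had a low array on day 4 after 7.4 Gy (replicate 1, -6.20 against -5.35 to -5.24, gap share 0.884). The brightest TGFA probe had a low array on day 7 after 7.4 Gy (replicate 2, -1.72 against -1.01 to -0.86, gap share 0.832).

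In the reported fit the level differed between days for the brightest probes of 4 members and for AREGB, by the test of the difference itself. The difference for HBEGF was lost in 11 of 30 alternatives, and that for AREGB from day 4 to day 12 in 4, among them without 1 array (adjusted p = 0.0597 and 0.0540). From day 4 to day 7 the log2 differences were -2.74 for EREG, -1.48 for NRG1, -1.09 for HBEGF, -1.70 for AREGB and 1.30 for ERBB2. From day 4 to day 12 they were -2.85 for EREG, -2.29 for NRG1, -1.52 for AREGB and 1.62 for ERBB2. All were taken over both doses with the control level cancelling out. Arrays of day 4 and those of days 7 and 12 sat at different array positions, so day and position cannot be told apart.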

How the results depend on the processing

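For the 30 called changes of member probes and AREGB, 788 values were computed under alternatives. Of these 731 kept direction and call, 57 lost the call and 0 reversed. Of 346 alternative counts, 330 stayed within 1.5 times the reported one. The exceptions among member probes were 1 after 6.7 Gy on day 4 by the methods' t-test (reported 6), 4 with normexp background correction and 3 with blocks for array position and scan day after 7.4 Gy (reported 7), and 5 with normexp from day 4 to day 7 (reported 8). For pathway genes after 6.7 Gy on day 4 (reported 6) they were 2 with normexp, 11 with spike-in scaling, 13 with array position as a block, 12 with array position and scan day, 1 by the methods' t-test, 2 with the compared groups alone and 14 by adjusted p alone. After 7.4 Gy (reported 9) they were 4 with normexp, 16 with spike-in scaling, 4 with array position and scan day, 5 by the methods' t-test and 22 by adjusted p alone. Leaving out 1 array gave 4 to 7 and 6 to 8 member probes on day 4, 6 to 9 from day 4 to day 7, 6 to 7 from day 4 to day 12 and 0 elsewhere, and 4 to 9 and 7 to 11 pathway genes. The lowest pathway count after 6.7 Gy came without replicate 2 of the 6.7 Gy day 4 group and the highest, 9, without its replicate 4. The lowest member count after 6.7 Gy, 4, also came without replicate 2, and the lowest from day 4 to day 7, 6, likewise. Over all probes normexp called 716 and 1423 on day 4, where 1390 and 2690 were reported. On day 12 after 7.4 Gy it called 98 (reported 10), and between doses 2 on day 4 and 33 on day 12 (reported 0). Spike-in scaling called 27 and 86 on day 7 (reported 121 and 148). Spike-in scaling shifted the median of all probes by 0.21 and 0.27 on day 4 and by up to 0.30 on day 12. Normexp shifted it by 0.30 on day 12 after 7.4 Gy.

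The replicate numbers did not pair the samples. Deviations of same-numbered arrays correlated at -0.23 to 0.24 over 62 pairs, 13 of them above 0.1, and 8 of 24 arrays correlated best with their own number. Arrays of the same slide correlated at -0.05 to 0.33 over 36 pairs. With the replicate block 6 and 7 member probes were called on day 4, 8 from day 4 to day 7 and 6 from day 4 to day 12, as reported, and 10 in place of 9 pathway genes after 7.4 Gy. With array position as a block, days 7 and 12 could not be compared with control or with day 4. Signal near background limits EREG in the controls, the dim TGFA and EGFR probes, and EGF.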
